A study of Homo sapiens with 12 samples.

Results

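The genes described here are those that the transcription factor ATF4 is known to control, together with its partner and feedback factors, and that supply cells with amino acids: they make them, carry them across the membrane, or load them onto tRNA. They were taken from a list of 39 gene symbols, drawn up with earlier results of these data known. Of these, 38 had a value among the 19775 genes measured, and GPT2 was not analysed here. The cells were NCI-H1299, an established line of human non-small cell lung cancer, and their RNA was hybridised to Affymetrix expression arrays as 4 groups with 3 arrays in each. Parental culture was grown in serum-containing medium. Spheroid culture was made by moving monolayers into stem-cell medium for 7 to 10 days and collecting the floating cells. Parental xenograft and spheroid xenograft were tumours grown from each kind of cell. All 4 groups come from 1 line. The labels call the arrays of a group biological replicates but give neither the host animal nor the animal of each tumour, so a p-value describes variation among these 12 samples and no more.

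ATF4 is translated when the initiation factor eIF2 is phosphorylated by kinases that sense amino acid shortage, unfolded protein in the endoplasmic reticulum, heme shortage or viral RNA. It binds DNA as a dimer with factors of the C/EBP family at a composite element and switches on genes for serine, asparagine and cysteine supply, for amino acid transporters and for aminoacyl-tRNA synthetases. Among its targets are also brakes on the response, such as TRIB3, and genes linked to cell death, such as DDIT3 and CHAC1. Because ATF4 is controlled largely at translation, its mRNA need not follow the mRNA of its targets.

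The composite element was searched as TGATGNAA, on both strands, in RefSeq promoters of GRCh38.p14 that run from 250 bases before to 50 bases after an annotated start. Of the 39 listed genes 33 had such a window, and 13 of the 33 (39.4%) held at least 1 match, against 1217 of 27305 genes with a window (4.46%). Some genes have several starts, and by window 13 of 56 (23.2%) held a match, against 3.62% of all 35116 windows. The 13 were AARS1, ASNS, ATF3, CARS1, CEBPG, CHAC1, GARS1, JDP2, NARS1, SLC1A4, SLC1A5, SLC3A2 and SLC7A1. By role, matches were held by 3 of 7 transcription factors and 1 of 4 stress effectors and receptor. They were held by 0 of 3 serine and folate-cycle genes and 1 of 5 genes grouped as other synthesis. Of transporters 4 of 6 held a match, and of genes of tRNA charging and export 4 of 8. The bases just upstream of the annotated transcript start are printed for 3 genes that passed the test in the comparisons that follow and for ASNS, the textbook target, with the match in capitals. CHAC1 is at chr15:40953221-40953470 on the plus strand, JDP2 at chr14:75427772-75428021 on the plus strand, CEBPG at chr19:33373863-33374112 on the plus strand and ASNS at chr7:97872409-97872658 on the minus strand.
CHAC1: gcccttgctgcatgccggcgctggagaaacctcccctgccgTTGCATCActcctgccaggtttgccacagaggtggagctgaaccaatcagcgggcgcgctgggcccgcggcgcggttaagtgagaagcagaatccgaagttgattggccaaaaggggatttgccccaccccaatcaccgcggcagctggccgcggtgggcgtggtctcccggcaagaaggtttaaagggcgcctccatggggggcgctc
JDP2: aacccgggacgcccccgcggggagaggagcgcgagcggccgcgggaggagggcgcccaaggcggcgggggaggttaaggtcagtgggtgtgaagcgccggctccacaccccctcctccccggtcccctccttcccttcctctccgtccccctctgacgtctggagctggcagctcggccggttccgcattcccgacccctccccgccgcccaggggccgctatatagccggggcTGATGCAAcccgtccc
CEBPG: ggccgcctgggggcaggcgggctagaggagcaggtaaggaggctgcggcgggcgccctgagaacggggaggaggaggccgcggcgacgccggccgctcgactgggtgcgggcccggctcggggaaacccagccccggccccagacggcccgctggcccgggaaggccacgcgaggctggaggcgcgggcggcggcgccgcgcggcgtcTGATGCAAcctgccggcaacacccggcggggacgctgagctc
ASNS: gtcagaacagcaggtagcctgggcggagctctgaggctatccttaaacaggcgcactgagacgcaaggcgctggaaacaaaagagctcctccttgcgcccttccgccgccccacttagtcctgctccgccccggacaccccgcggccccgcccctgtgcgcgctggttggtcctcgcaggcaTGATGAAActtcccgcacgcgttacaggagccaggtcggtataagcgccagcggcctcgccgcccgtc
The match began 209 bases before the annotated start of CHAC1 and read TTGCATCA, the reverse complement form. It began 16 bases before the start of JDP2 and 42 bases before that of CEBPG, reading TGATGCAA in both. In ASNS it began 68 bases before the start and read TGATGAAA. A match is a description of these letters and not a measured binding site.

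The values are log2 levels, 1 probe set per gene, so a difference of 1 is a doubling of signal, and levels of different genes are not comparable. A gene is said to rise or fall where limma, fitted to all 12 arrays and all 19775 genes, gave a Benjamini-Hochberg adjusted p under 0.05. Parental culture replicates 1 and 2 stood apart from the other arrays before any gene is considered. Replicate 1 had a GAPDH 3′ minus 5′ signal of 0.49, against 0.019 to 0.13 on the other 11 arrays, and an 18S ribosomal control signal of 6.96. Replicate 2 had an 18S signal of 10.50, against 12.21 to 13.34 on the remaining 10 arrays, and the widest spread of levels, with an interquartile range of 3.44 against 2.82 to 3.29. Counts of members called that use parental culture, and some medians, are therefore also given without them. Counts of values that do not overlap, counts by role, the promoter split and the calls of wider lists and markers are given only with them.

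By group mean, 27 of the 38 members were highest in parental culture and 27 were lowest in parental xenografts. The median deviation of the 38 members from their own 12-array means was -0.30, 0.97 and 0.44 on the 3 parental culture arrays, -0.21, -0.021 and 0.11 in spheroid culture, -0.35, -0.34 and -0.14 in parental xenografts and -0.017, -0.0050 and 0.047 in spheroid xenografts. Parental culture replicates 2 and 3 were thus high and the 3 parental xenografts low, while replicate 1 of parental culture lay within the range of the parental xenografts. Replicate 1 read below both other parental culture arrays for 36 of the 38 members.

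**Figure D1:**
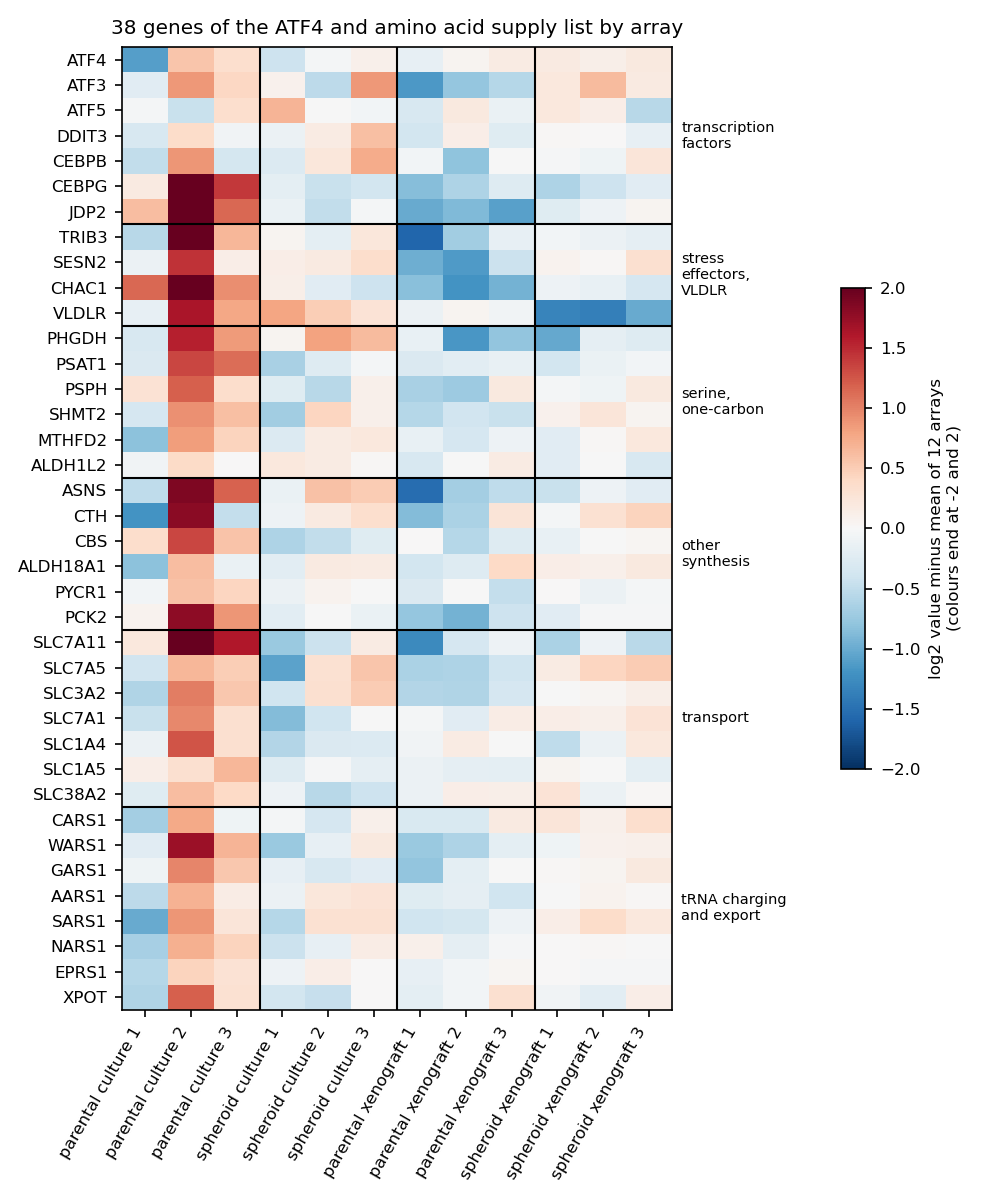
Log2 level of each of the 38 members on each of the 12 arrays, as the deviation from that gene's 12-array mean, with genes ordered by role and arrays by group. Parental culture replicate 2 holds the highest value of 34 members, and the 3 parental xenografts sit below the mean for most members.

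Most members are brightly measured: 26 of 38 lay above the upper quartile of gene levels. Over all genes above that quartile the median deviation on the 3 parental culture arrays was -0.48, 0.25 and -0.043, so bright genes in general were low on replicate 1 and high on replicate 2, as the members were, but not high on replicate 3. Their part in the member values was not tested. After a further quantile normalisation, which gives every array the same spread, the member medians became 0.096, 0.74 and 0.47 in parental culture and -0.061, 0.025 and 0.039 in spheroid culture. They became -0.38, -0.35 and -0.29 in parental xenografts and -0.018, -0.0042 and -0.084 in spheroid xenografts. The genes above the upper quartile then had medians of -0.018, -0.0090 and 0.0045 on the 3 parental culture arrays. On that scale the 3 parental culture arrays lay above the other 9 and the 3 parental xenografts below the other 9.

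**Figure D2:**
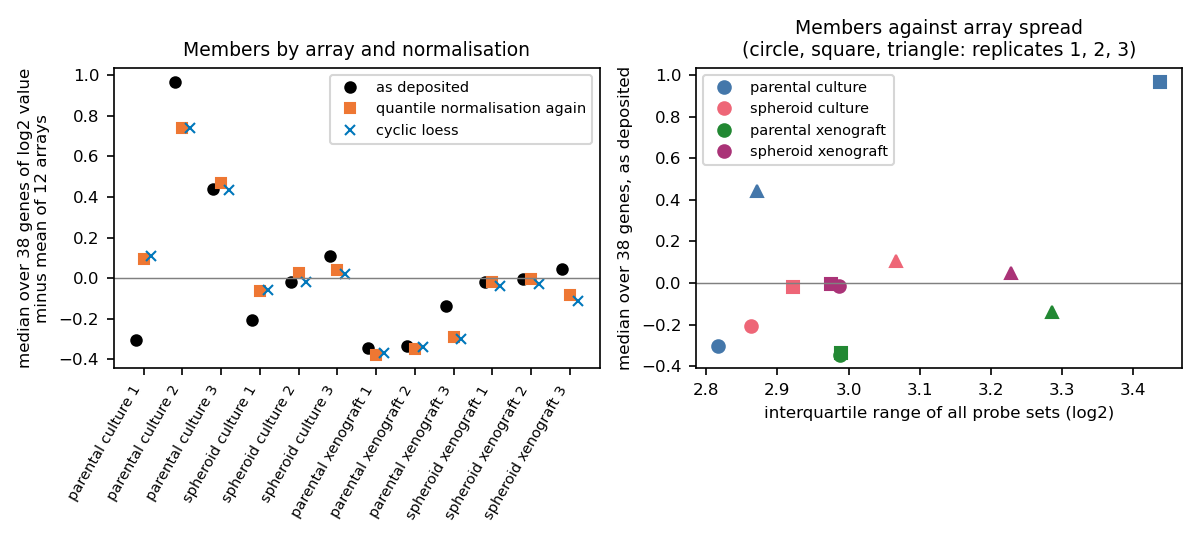
Median deviation of the 38 members from their 12-array means (log2), 1 point per array, as deposited, after quantile normalisation and after cyclic loess (left), and plotted against the interquartile range of the array (right). As deposited, parental culture replicate 1 sits at -0.30 and replicate 2 at 0.97. After quantile normalisation all 3 parental culture arrays lie between 0.096 and 0.74.

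Between the cultures, 0 of 38 members rose in spheroid cells and 3 fell (7.89%), against 2.46% of all genes called in either direction and 1.58% called lower. The 3 were CHAC1, a glutathione-degrading enzyme, CBS, which makes cystathionine, and JDP2, a bZIP repressor of the AP-1 family. The difference was negative for 31 members and positive for 7, with a median of -0.33, against 0.070 over all genes. In 10 members all 3 spheroid arrays lay below all 3 parental arrays (26.3%, against 6.56% of all genes), and in 0 above (7.21% of all genes). Without parental culture replicate 2 the median was -0.031, against 0.032 over all genes, with 17 differences positive and 21 negative, and 3 members fell (3.86% of all genes were called). Without replicate 1 the median was -0.70, with 2 positive and 36 negative, and 14 members fell (4.31% of all genes called). Without replicates 1 and 2 together, with replicate 3 assumed to vary like the other arrays, the median was -0.57, 1.24% of all genes were called, and 3 members fell: CEBPG (-1.75, adjusted p = 0.0113), JDP2 (-1.37, adjusted p = 0.0174) and PSAT1 (-1.43, adjusted p = 0.0226). Further, 0 fell without spheroid culture replicate 2 (10 at an unadjusted p under 0.05 in limma, and 0.389% of all genes called) and 1 without spheroid culture replicate 3 (0.794% of all genes called). With limma fitted to these 2 groups alone, 0 members were called, against 0.0759% of all genes, and 12 members had an unadjusted p under 0.05. In the fit to all 12 arrays, 14 members and 2767 of all 19775 genes had an unadjusted p under 0.05. No such count over all genes is given for the 2-group fit or for the fit without spheroid culture replicate 2.

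From parental culture to parental xenograft, 0 of 38 members rose and 7 fell (18.4%), against 3.47% of all genes called in either direction and 1.48% called lower. CHAC1 and JDP2 fell most, followed by CEBPG (a C/EBP partner of ATF4), SLC7A11 (the cystine importer), PCK2 (mitochondrial phosphoenolpyruvate carboxykinase), SESN2 (an inhibitor of mTORC1 that senses leucine) and CBS. The difference was negative for 36 members, with a median of -0.68, against -0.0091 over all genes. All 3 xenografts lay below all 3 cultures for 13 members (34.2%, against 6.28% of all genes), and above for 0 members (7.37% of all genes). Parental culture replicate 3 alone lay above all 3 parental xenografts for 31 of 38 members (81.6%, against 41.3% of all genes). Its 18S signal of 13.34 and GAPDH 3′ minus 5′ signal of 0.129 lay just above the highest of the other groups, 13.24 and 0.123. Replicates 1 and 2 lay above all 3 parental xenografts for 13 and 37 of 38 members, with no share over all genes given. The count of members that fell was 20 without parental culture replicate 1 (3.92% of all genes called), 6 without replicate 2 (8.05%) and 2 without replicate 3 (1.35%). It was 3 without parental xenograft replicate 1 (1.97% of all genes called), 2 without parental xenograft replicate 2 (1.25%), and 4 without spheroid culture replicate 2 (2.45%) or any 1 spheroid xenograft (2.28% to 2.66%). The median was -1.08, with 38 of 38 differences negative, without parental culture replicate 1, and -0.46, with 27 negative and 11 positive, without replicate 2. Without parental culture replicates 1 and 2 together, where 2.8% of all genes were called, 8 members fell: CEBPG, JDP2, CHAC1, PSAT1, ASNS, PCK2, SLC7A11 and SLC1A5. Of these CHAC1 gave -1.92, adjusted p = 0.00477 and JDP2 -2.13, adjusted p = 0.00156, while SESN2 (-0.99, adjusted p = 0.0782) and CBS (-0.85, adjusted p = 0.0958) no longer passed. With limma fitted to these 2 groups alone, CHAC1 was the only member called (-2.35, adjusted p = 0.0334), with 0.349% of all genes.

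Between the 2 kinds of tumour, limma called 0 of 38 members, against 0.233% of all genes (0.0506% higher and 0.182% lower). At an unadjusted p under 0.05 there were 6 members and 1452 of all 19775 genes. Values were higher in spheroid than in parental xenografts for 34 of 38 members, with a median difference of 0.22, against 0.019 over all genes. All 3 spheroid xenografts lay above all 3 parental xenografts for 13 members (34.2%, against 9.3% of all genes), and below for VLDLR alone (7.21% of all genes). Deviations of same-numbered tumours correlated at 0.18, 0.21 and 0.48 in these same data, though the labels do not say what the numbers share. After this was seen, limma was also fitted to the 6 xenograft arrays with the replicate number as a block. In that fit, which called 2.48% of all genes, 6 members were higher in spheroid xenografts, against 1.09% of all genes, and 1 was lower, against 1.4% of all genes. The 6 were ATF3 (1.17, adjusted p = 0.0252), JDP2 (0.89, adjusted p = 0.0271), SESN2 (0.99, adjusted p = 0.0219), CHAC1 (0.79, adjusted p = 0.0363), SHMT2 (0.60, adjusted p = 0.0480) and SLC7A5 (0.92, adjusted p = 0.0203). VLDLR was lower (-1.19, adjusted p = 0.0165). Other probe sets of the 6 gave 0.14 and 0.11 for ATF3 and 0.056 for JDP2, but 0.99 for SESN2 and 0.66 and 0.64 for SHMT2. Without the block, the fit to the 6 arrays called ATF3, JDP2 and SLC7A5 higher and VLDLR lower (0.814% of all genes called), and the fit to all groups called 3 members without parental culture replicate 2 (0.708%). FAP, a fibroblast marker, was itself lower in spheroid than in parental xenografts (-1.35, adjusted p = 0.0365), and 8 of 10 fibroblast markers had a negative difference. Their part in the member differences was not tested.

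From spheroid culture to spheroid xenograft, limma called 0 of 38 members, against 0.0202% of all genes. At an unadjusted p under 0.05 there were 2 members and 1461 of all 19775 genes. The difference was positive for 21 members and negative for 17, with a median of 0.10, against -0.047 over all genes. In 4 members the xenografts lay above the cultures without overlap (10.5%, against 8.85% of all genes) and in 3 below (7.89%, against 9.85% of all genes). With the replicate number as a block in a fit to these 6 arrays, VLDLR (-1.74, adjusted p = 0.00899) and PHGDH (-0.98, adjusted p = 0.0104) were lower in the xenografts, where 2.99% of all genes were called, 2.1% higher and 0.885% lower. In the fit to all groups, 1 member was called without parental culture replicate 1 (0.0556% of all genes) and 1 without replicate 2 (0.288%).

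The difference between spheroid and parental cells was itself compared between tumour and culture, which uses all 4 groups. CHAC1 alone passed, at 2.33 (SE 0.35, adjusted p = 0.0340), or 1 of 38 members, against 0.137% of all genes (0.0657% higher and 0.0708% lower). The value was positive for 34 members, with a median of 0.68, against -0.044 over all genes. The median was 1.12, with 35 positive, without parental culture replicate 1 and 0.43, with 26 positive, without replicate 2. FAP also passed, at -1.94 (SE 0.32, adjusted p = 0.0416), and 9 of 10 fibroblast markers had a negative value. The count of members called was 5 without parental culture replicate 1 (0.491% of all genes called), 2 without replicate 2 (0.941%), 4 without both (CEBPG, JDP2, CHAC1 and PCK2, with 0.314% of all genes), and 0 without spheroid culture replicate 2 or 3 or without any 1 of the 6 xenografts. With the replicate number as a block, CHAC1 did not pass (2.33, adjusted p = 0.0546). The comparisons share groups: parental culture enters 3 of the 5 and parental xenograft 3, so their values are given side by side and not as repeats of each other.

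**Figure D3:**
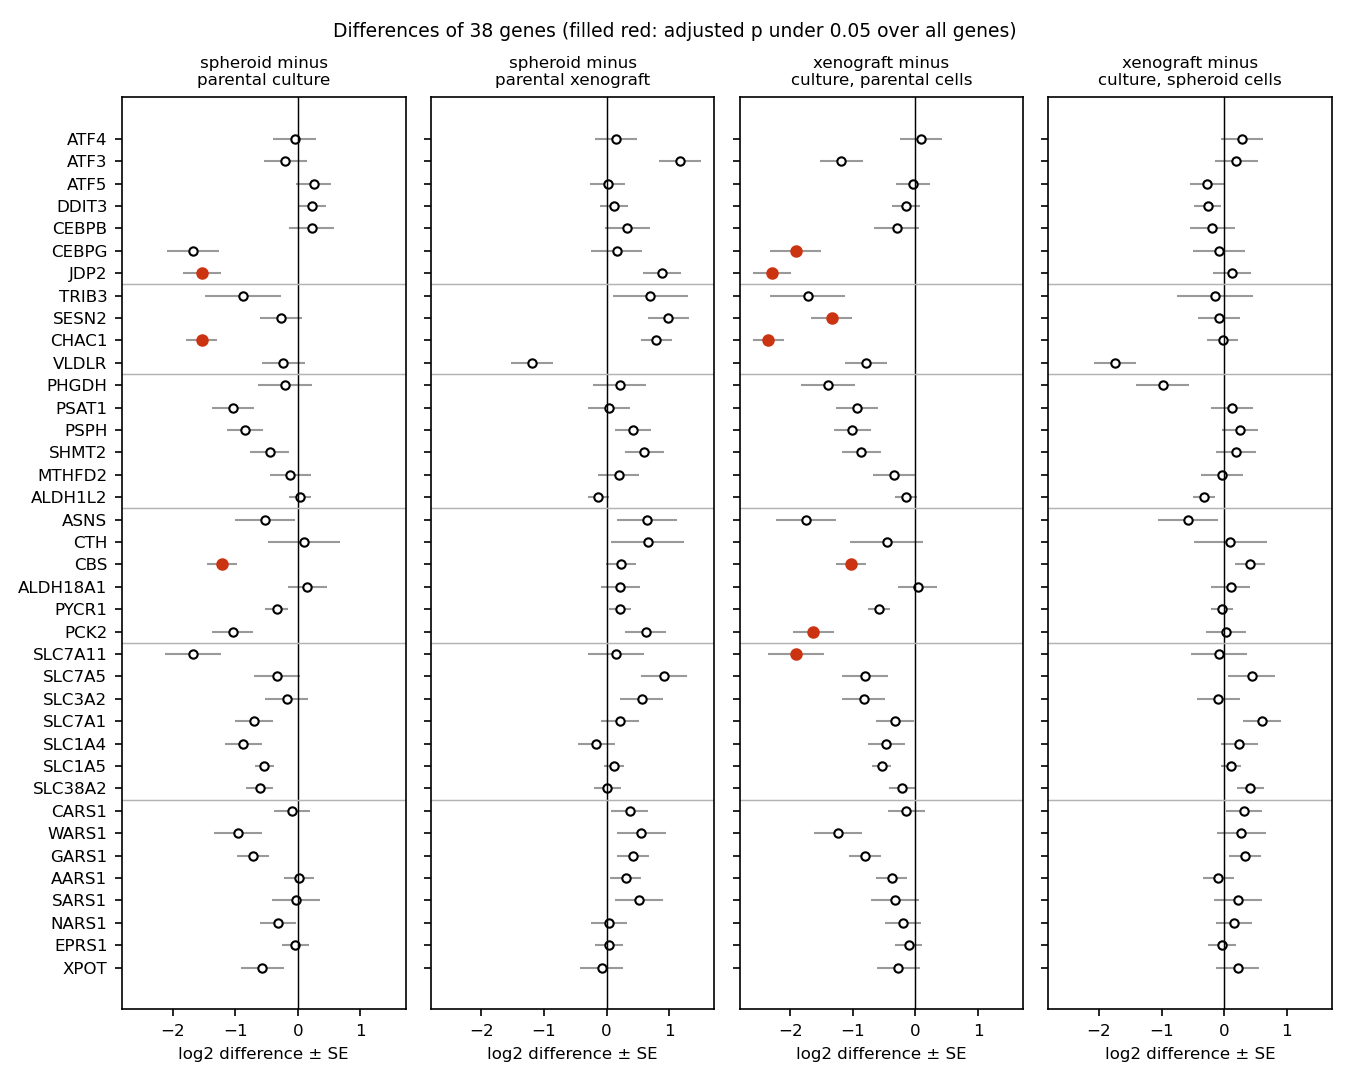
Log2 difference of each of the 38 members in the 4 comparisons of 2 groups, as points with bars of ± SE and genes grouped by role. Members called by limma are filled: 3 of them between spheroid and parental culture, 7 between parental xenograft and parental culture, and 0 in the other comparisons, where the medians are 0.22 and 0.10.

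Among the 7 transcription factors, 1 fell from parental to spheroid culture and 2 from parental culture to parental xenograft, against 1.58% and 1.48% of all genes. Their medians were -0.052 and -0.30 in those comparisons, and 0.16 between the xenografts. ATF4 itself was not called in any comparison, with means of 12.49 ± 0.90, 12.43 ± 0.26, 12.57 ± 0.17 and 12.72 ± 0.044 in parental culture, spheroid culture, parental xenograft and spheroid xenograft (SD, n = 3). Its differences were -0.052 (SE 0.34, adjusted p = 0.970) between the cultures and 0.085 (SE 0.34, adjusted p = 0.981) from parental culture to parental xenograft.

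JDP2 read 7.50, 9.05 and 8.03 on the parental culture arrays, 6.76, 6.40 and 6.84 on the spheroid culture arrays, 5.88, 6.01 and 5.80 in the parental xenografts and 6.64, 6.79 and 6.94 in the spheroid xenografts. The 3 parental cultures lay above every other array and the 3 parental xenografts below every other array. JDP2 fell in spheroid culture by 1.53 (SE 0.30, adjusted p = 0.0222) and in parental xenografts by 2.30 (SE 0.30, adjusted p = 0.00250), and the interaction was 2.42 (SE 0.43, adjusted p = 0.0546). A second, dimmer probe set of JDP2 gave -0.21 and -0.18 in the same 2 comparisons, and the mean of both gave -0.87, adjusted p = 0.0251 and -1.24, adjusted p = 0.00311. In cultures the call was lost without parental culture replicate 3 (adjusted p = 0.0550), spheroid culture replicate 2 (0.128) or spheroid culture replicate 3 (0.0645).

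CEBPG, which pairs with ATF4 on the composite element, read 9.21, 11.44 and 10.44 on the parental culture arrays, 8.83, 8.58 and 8.67 on the spheroid culture arrays, 8.18, 8.41 and 8.77 in the parental xenografts and 8.41, 8.62 and 8.80 in the spheroid xenografts. All parental cultures were above all other arrays, but they spanned more than 2 log2 units. CEBPG fell in parental xenografts by 1.92 (SE 0.41, adjusted p = 0.0263), and its difference in spheroid culture was -1.67 (SE 0.41, adjusted p = 0.0550). The second probe set gave -2.24 in the xenografts, and the call was lost without parental culture replicate 3 or parental xenograft replicate 1 or 2 (adjusted p up to 0.195).

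ATF3, a stress-induced bZIP factor, had means of 7.36 ± 0.55, 7.17 ± 0.70, 6.18 ± 0.29 and 7.36 ± 0.25 in the same order of groups (SD, n = 3). All 3 parental xenografts lay below all 9 other arrays, and the difference between spheroid and parental xenografts was 1.17 (SE 0.34, adjusted p = 0.264). From parental culture to parental xenograft ATF3 differed by -1.18, and its dimmer probe sets gave -0.23 and -0.080. DDIT3 (CHOP), CEBPB and ATF5 differed by 0.23, 0.22 and 0.25 between the cultures and by -0.15, -0.30 and -0.038 from parental culture to parental xenograft. None of these 4 factors passed the test in any of the 5 comparisons, and the arrays of all 4 groups overlapped for DDIT3, CEBPB and ATF5. The other probe sets of ATF5 gave -0.48, 0.028 and -0.62 between the cultures.

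**Figure D4:**
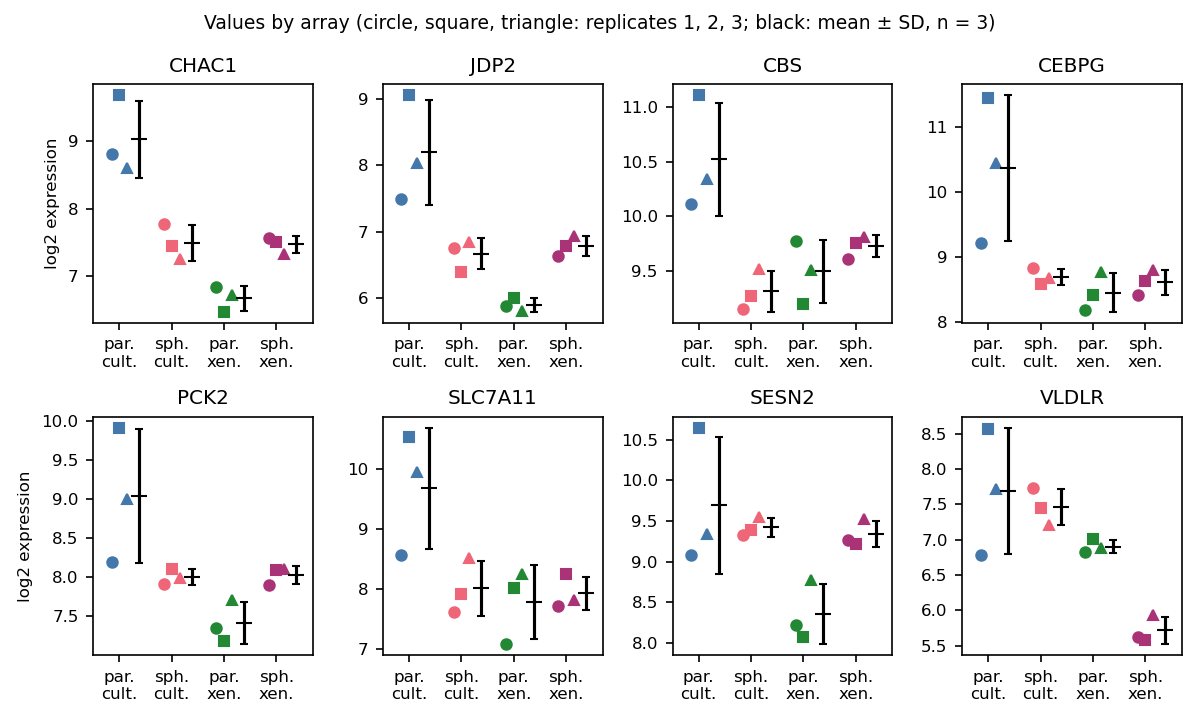
Log2 level on every array for 8 members, grouped by parental culture, spheroid culture, parental xenograft and spheroid xenograft, with 1 point per array (circle, square and triangle for replicates 1, 2 and 3) and black bars for the mean ± SD. CHAC1 and JDP2 lie highest in the 3 parental cultures and lowest in the 3 parental xenografts, and VLDLR lies lowest in the 3 spheroid xenografts.

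Of the 4 stress effectors and receptor, 1 fell from parental to spheroid culture and 2 fell from parental culture to parental xenograft, where the median was -1.53. Over all genes 1.58% and 1.48% were called lower in those comparisons. CHAC1 read 8.81, 9.68 and 8.60 on the parental culture arrays, 7.78, 7.45 and 7.26 on the spheroid culture arrays, 6.84, 6.47 and 6.72 in the parental xenografts and 7.56, 7.51 and 7.34 in the spheroid xenografts. The 4 groups ran from parental culture, through both spheroid groups, whose arrays overlapped, down to parental xenografts, which lay below all 9 other arrays. CHAC1 fell in parental xenografts by 2.35 (SE 0.25, adjusted p = 0.00101), a 5.11-fold lower signal, and this call held in all 22 alternatives run on it (adjusted p from 2.54e-05 to 0.0334). Between the cultures its difference was -1.53 (SE 0.25, adjusted p = 0.00945), and lost the call without spheroid culture replicate 2 (-1.51, adjusted p = 0.0602) and without parental culture replicates 1 and 2 (-1.10, adjusted p = 0.0511). Its difference was 0.79 (SE 0.25, adjusted p = 0.317) between the 2 kinds of xenograft and -0.024 between spheroid xenograft and spheroid culture.

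SESN2 read 9.08, 10.65 and 9.34 on the parental culture arrays, 9.32, 9.38 and 9.55 on the spheroid culture arrays, 8.22, 8.06 and 8.77 in the parental xenografts and 9.27, 9.22 and 9.52 in the spheroid xenografts. The parental xenografts lay below every other array, and the other 3 groups overlapped. SESN2 fell in parental xenografts by 1.34 (SE 0.33, adjusted p = 0.0489), close to the threshold, and this call was lost in 15 of 21 alternatives (adjusted p up to 0.260), among them leaving out parental culture replicate 3 or any 1 array of the other 3 groups. TRIB3, the pseudokinase that restrains ATF4, differed by -1.72 (SE 0.60, adjusted p = 0.172) in the same comparison, with parental culture values from 8.52 to 11.69.

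VLDLR, a lipoprotein receptor that ATF4 induces under stress, was among the 4 members with a negative difference between the xenografts. It read 6.78, 8.57 and 7.72 on the parental culture arrays, 7.73, 7.44 and 7.21 on the spheroid culture arrays, 6.83, 7.00 and 6.88 in the parental xenografts and 5.63, 5.58 and 5.94 in the spheroid xenografts. The 3 spheroid xenografts were the lowest of the 12 arrays, without overlap with any other group. The differences were -1.19 (SE 0.34, adjusted p = 0.246) from parental to spheroid xenograft and -1.74 (SE 0.34, adjusted p = 0.102) from spheroid culture to spheroid xenograft, neither past the threshold in the fit to all 4 groups. With limma fitted to only the groups compared, VLDLR passed in both (adjusted p = 0.0134 and 0.0128). Those fits called 0.814% and 0.592% of all genes.

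No gene of the serine and folate-cycle branch passed the test, with 0 of 6 called by limma in each of the 5 comparisons. At an unadjusted p under 0.05 there were 2 of 6 between the cultures and 4 of 6 from parental culture to parental xenograft. Over all genes, 2767 and 2823 of 19775 had an unadjusted p under 0.05 in those comparisons. The medians of the 6 genes were -0.32 and -0.90 there. PHGDH, the enzyme that commits glucose carbon to serine, read 8.62, 10.51 and 9.79 on the parental culture arrays, 8.99, 9.74 and 9.58 on the spheroid culture arrays, 8.79, 7.79 and 8.16 in the parental xenografts and 7.91, 8.77 and 8.68 in the spheroid xenografts. Both xenograft groups lay low, as did parental culture replicate 1, and overlapped each other, and the spheroid xenografts lay below all spheroid cultures. Its difference was -1.39 (SE 0.43, adjusted p = 0.111) from parental culture to parental xenograft and -0.98 (SE 0.43, adjusted p = 0.644) from spheroid culture to spheroid xenograft. PSAT1, the next enzyme of the path, read 11.84, 13.46 and 13.25 on the parental culture arrays, 11.48, 11.88 and 12.10 on the spheroid culture arrays, 11.84, 11.92 and 11.98 in the parental xenografts and 11.77, 11.99 and 12.07 in the spheroid xenografts. Parental culture replicates 2 and 3 were high, and replicate 1 lay among the other 9 arrays. Its difference was -1.03 (SE 0.34, adjusted p = 0.152) between the cultures and -0.94 (SE 0.34, adjusted p = 0.185) from parental culture to parental xenograft.

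PSPH, which frees serine from its phosphate, had means of 9.38 ± 0.51, 8.54 ± 0.33, 8.38 ± 0.51 and 8.80 ± 0.15 (SD, n = 3), and all parental cultures lay above all spheroid cultures and all parental xenografts. SHMT2, which passes the serine carbon to folate in mitochondria, had means of 11.15 ± 0.65, 10.70 ± 0.58, 10.29 ± 0.094 and 10.89 ± 0.098 (SD, n = 3), and its spheroid xenografts lay above its parental xenografts without overlap. MTHFD2 and ALDH1L2, which are mitochondrial folate enzymes, differed by -0.35 and -0.15 from parental culture to parental xenograft. Dimmer probe sets of these genes disagreed in size, at -0.97 for MTHFD2 and -1.61 and -0.36 for ALDH1L2.

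The 6 genes grouped as other amino acid synthesis include PCK2, which is not itself an enzyme of that kind. Of these 6, CBS fell between the cultures, and CBS and PCK2 fell from parental culture to parental xenograft. Over all genes 1.58% and 1.48% were called lower in those comparisons. CBS read 10.12, 11.11 and 10.34 on the parental culture arrays, 9.15, 9.27 and 9.52 on the spheroid culture arrays, 9.78, 9.20 and 9.51 in the parental xenografts and 9.61, 9.76 and 9.81 in the spheroid xenografts. All 3 parental cultures lay above all 9 other arrays, and the spheroid cultures below the spheroid xenografts. CBS fell in spheroid culture by 1.21 (SE 0.24, adjusted p = 0.0218) and in parental xenografts by 1.02 (SE 0.24, adjusted p = 0.0380). The calls were lost in 5 and 12 of the 22 alternatives run on each, among them leaving out spheroid culture replicate 1 (adjusted p = 0.0505), 2 (0.111) or 3 (0.0567) in the cultures. In the xenografts it was lost on dropping any 1 spheroid xenograft, replicate 2 or 3 of parental xenograft or of spheroid culture, or replicate 3 of parental culture (adjusted p up to 0.227 over all alternatives).

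PCK2 read 8.20, 9.92 and 9.01 on the parental culture arrays, 7.91, 8.11 and 7.99 on the spheroid culture arrays, 7.35, 7.18 and 7.70 in the parental xenografts and 7.90, 8.10 and 8.10 in the spheroid xenografts. The parental cultures lay above the other 9 arrays, and the parental xenografts below the other 9. PCK2 fell in parental xenografts by 1.63 (SE 0.32, adjusted p = 0.0193), and its difference between the cultures was -1.04 (SE 0.32, adjusted p = 0.133). The call in the xenografts was lost without parental culture replicate 3 or parental xenograft replicate 1 or 2 (adjusted p up to 0.170). ASNS, asparagine synthetase, read 11.95, 14.33 and 13.64 on the parental culture arrays, 12.33, 13.05 and 12.97 on the spheroid culture arrays, 10.94, 11.78 and 11.95 in the parental xenografts and 12.01, 12.36 and 12.24 in the spheroid xenografts. Parental xenograft replicate 1 was the lowest of the 12 arrays, the parental cultures spanned more than 2 log2 units, and their lowest array met the highest parental xenograft. Its difference there was -1.75 (SE 0.48, adjusted p = 0.0743). CTH, which completes cysteine synthesis after CBS, differed by 0.099 between the cultures and -0.46 from parental culture to parental xenograft. PYCR1 and ALDH18A1, of proline synthesis, differed by -0.58 and 0.038 in the second of these comparisons, and none of the 3 passed the test in any comparison.

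Of the 7 amino acid transporters, 0 passed the test between the cultures, and SLC7A11 fell from parental culture to parental xenograft. Over all genes 1.58% and 1.48% were called lower in those comparisons. Between the cultures 5 had an unadjusted p under 0.05 in limma, as did 2767 of all 19775 genes. The medians of the 7 transporters were -0.61 and -0.54 in those comparisons. SLC7A11 read 8.57, 10.54 and 9.96 on the parental culture arrays, 7.62, 7.93 and 8.52 on the spheroid culture arrays, 7.08, 8.01 and 8.25 in the parental xenografts and 7.73, 8.25 and 7.82 in the spheroid xenografts. All parental cultures lay above all other arrays, and the other 3 groups overlapped. SLC7A11 fell in parental xenografts by 1.91 (SE 0.45, adjusted p = 0.0400), with the same sign in all 3 of its probe sets, and its difference between the cultures was -1.67 (SE 0.45, adjusted p = 0.0782). The call was lost in 12 of 22 alternatives (adjusted p up to 0.204), among them leaving out parental culture replicate 2 or 3, spheroid culture replicate 2 or any 1 xenograft.

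SLC7A5, the leucine carrier LAT1, read 10.40, 11.45 and 11.28 on the parental culture arrays, 9.72, 11.09 and 11.34 on the spheroid culture arrays, 10.16, 10.17 and 10.39 in the parental xenografts and 10.95, 11.21 and 11.29 in the spheroid xenografts. The parental xenografts lay below both parental culture and spheroid xenograft without overlap, and spheroid culture replicate 1 lay low in its group. Its difference between spheroid and parental xenografts was 0.92 (SE 0.37, adjusted p = 0.559). SLC3A2, the heavy chain that SLC7A5 and SLC7A11 both need, had means of 10.30 ± 0.83, 10.12 ± 0.48, 9.47 ± 0.15 and 10.03 ± 0.061 (SD, n = 3), and its spheroid xenografts also lay above its parental xenografts without overlap. SLC1A4 and SLC1A5, carriers of small neutral amino acids and glutamine, differed by -0.87 and -0.53 between the cultures, in both without overlap (6.56% of all genes). Other probe sets of SLC1A4 disagreed, at -1.19, 0.014, -0.68 and 0.028 between the cultures. SLC7A1, the arginine carrier, and SLC38A2, a glutamine carrier, differed by -0.70 and -0.61 there.

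Of the 8 genes of tRNA charging and export, limma called 0 in each of the 5 comparisons. At an unadjusted p under 0.05 there were 2 between the cultures (2767 of all 19775 genes) and 2 from parental culture to parental xenograft (2823 of all 19775 genes). The medians of the 8 genes were -0.20 and -0.30. WARS1, the tryptophanyl-tRNA synthetase, read 10.08, 12.01 and 10.97 on the parental culture arrays, 9.56, 10.13 and 10.50 on the spheroid culture arrays, 9.55, 9.68 and 10.11 in the parental xenografts and 10.21, 10.39 and 10.40 in the spheroid xenografts. Parental culture replicates 2 and 3 lay above all other arrays, while replicate 1 lay within the range of spheroid culture and of parental xenografts. Its difference was -0.96 (SE 0.39, adjusted p = 0.281) between the cultures and -1.24 (SE 0.39, adjusted p = 0.121) from parental culture to parental xenograft. GARS1, the glycyl-tRNA synthetase, read 12.18, 13.25 and 12.81 on the parental culture arrays, 12.11, 11.94 and 12.05 on the spheroid culture arrays, 11.48, 12.08 and 12.27 in the parental xenografts and 12.30, 12.32 and 12.47 in the spheroid xenografts. The 3 spheroid cultures lay below both the parental cultures and the spheroid xenografts, and its difference between the cultures was -0.71 (SE 0.25, adjusted p = 0.199).

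AARS1, CARS1, SARS1, NARS1 and EPRS1, which charge alanine, cysteine, serine, asparagine, and glutamate with proline, differed by -0.38, -0.14, -0.33, -0.20 and -0.11 from parental culture to parental xenograft. XPOT, which exports tRNA from the nucleus, differed by -0.27. The same genes in the order AARS1, CARS1, SARS1, NARS1, EPRS1 and XPOT differed by 0.018, -0.092, -0.033, -0.31, -0.036 and -0.56 between the cultures. Second probe sets gave lower values from parental culture to parental xenograft for SARS1 (-1.22) and XPOT (-0.91).

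The promoter matches were set beside these differences as a description. From parental culture to parental xenograft the median difference was -0.80 over the 13 members with a match and -0.40 over the 20 members with a window and no match, with 3 that fell in each set. Over all genes with a window the median was -0.022 for 556 genes with a match and -0.0081 for 14828 without, and 1.62% and 1.63% were called lower. CBS, PCK2 and SESN2 had a window with no match, which says only that these letters are not in that window.

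Other genes of the same pathways were read from 6 wider lists. Beside their calls, 2.46% of all genes were called between the cultures and 3.47% from parental culture to parental xenograft. Of 19 other ATF4 and stress response genes, ERO1A, an oxidase of the endoplasmic reticulum, rose in spheroid culture (1.50, SE 0.35, adjusted p = 0.0479) and STC2, a secreted stress glycoprotein, fell (-0.87, SE 0.17, adjusted p = 0.0217), with a list median of -0.24. STC2 also fell from parental culture to parental xenograft (-1.68, SE 0.17, adjusted p = 8.50e-04), where the list median was -0.096. Of 14 genes of the eIF2 kinases and machinery, only EIF2AK3 (PERK) was called, and it rose from parental culture to parental xenograft (1.42, SE 0.34, adjusted p = 0.0413). Between the cultures the lowest p of that list was that of EIF2S3 (0.69, adjusted p = 0.0676). Of 19 other amino acid enzymes, GLUL, glutamine synthetase, was the only one called, and it fell from parental culture to parental xenograft (-1.56, SE 0.34, adjusted p = 0.0290). Between the cultures ASS1 had the lowest p of these (0.50, adjusted p = 0.362).

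Of 24 other transporters, SLC16A10, which carries aromatic amino acids, fell in spheroid culture (-1.40, SE 0.22, adjusted p = 0.00812) and in parental xenografts (-1.59, SE 0.22, adjusted p = 0.00284). Of 15 mitochondrial synthetases, SARS2 fell in both (-1.35, SE 0.16, adjusted p = 0.00285 in the first, and -1.13, SE 0.16, adjusted p = 0.00316 in the second). Of 10 other cytosolic synthetases limma called 0 in each comparison, with 0 at an unadjusted p under 0.05 between the cultures and 0 from parental culture to parental xenograft. KARS1 had the lowest p between the cultures, at 0.46 (adjusted p = 0.578), and RARS1 from parental culture to parental xenograft, at 0.36 (adjusted p = 0.687). In the remaining 3 comparisons limma called 0 genes of these 6 lists, with 0 to 3 per list at an unadjusted p under 0.05. Between the xenografts the genes of lowest p were NFIL3 (-1.47, adjusted p = 0.363), EIF2S3 (0.33, adjusted p = 0.824), ASS1 (0.76, adjusted p = 0.298), SLC6A6 (-0.72, adjusted p = 0.347), FARSA (0.66, adjusted p = 0.898) and VARS2 (0.49, adjusted p = 0.318). From spheroid culture to spheroid xenograft they were STC2 (-0.52, adjusted p = 0.421), EIF2B4 (0.41, adjusted p = 0.819), OAT (0.47, adjusted p = 0.690), SLC7A6 (0.82, adjusted p = 0.288), HARS1 (0.59, adjusted p = 0.581) and LARS2 (-0.33, adjusted p = 0.571). For the interaction they were STC2 (1.15, adjusted p = 0.104), EIF2AK3 (-1.45, adjusted p = 0.405), GLUL (1.32, adjusted p = 0.479), SLC16A10 (1.49, adjusted p = 0.0980), VARS1 (0.55, adjusted p = 0.970) and SARS2 (1.17, adjusted p = 0.0794). All these fell short of the threshold, in either direction. The cytosolic synthetases outside the ATF4 list had a median of 0.13 from parental culture to parental xenograft, beside -0.30 for the 8 members of tRNA charging and export. Between the xenografts these 2 medians were alike, at 0.26 and 0.34, and between the cultures they were -0.054 and -0.20.

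Bulk RNA cannot tell fewer cells of a type from less RNA per cell. All 4 groups come from 1 human line, and whether cells of the line or of the host gave the marker signals was not tested. Of 10 fibroblast markers, 3 rose from parental culture to parental xenograft: COL3A1 (2.06, adjusted p = 0.0126), FAP (2.20, adjusted p = 8.50e-04) and POSTN (0.84, adjusted p = 0.0172). Over all genes 2% were called higher there. FAP alone of the 10 was called between the xenografts and for the interaction, lower in both. The median level of the 10 ranged from 5.31 to 5.85 in parental culture, 5.71 to 5.81 in spheroid culture, 6.15 to 7.01 in parental xenografts and 5.91 to 6.17 in spheroid xenografts. LUM stayed below the lower quartile of its array on all 12 arrays. Their part in the lower member values of parental xenografts was not tested. Of the endothelial, myeloid, erythroid, adipocyte and skeletal muscle markers limma called 0 in any comparison, with at most 1 per list at an unadjusted p under 0.05. Of the genes that check the line, VIM was bright on all 12 arrays (13.55 to 14.70), and KRT8 fell in spheroid culture (-1.43, adjusted p = 0.0109) and, with KRT18, in parental xenografts (-1.77, adjusted p = 0.00278 for KRT8, and -1.71, adjusted p = 0.0191 for KRT18).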

How the data were processed

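The values are the log2 expression levels that the authors deposited, made with RMA in the affy package, per the submitters' processing notes. RMA summarises the probes of a probe set and normally makes array distributions equal, but these arrays kept different spreads, so renormalised values were tried as well. Total RNA (2 µg) was labelled, per the labels' protocols. Of 54675 probe sets 41091 matched 1 gene symbol, 1801 several and 11783 none. Symbols were updated by gene number, and each of 19775 genes was represented by its brightest probe set (mean of all 12 arrays). limma 3.58.1 in R 4.3.3 was fitted with 1 mean per group and 5 contrasts. The fit was tested on simulated data.

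The 39 members, the wider lists and the markers were chosen with earlier results of these data known. Array values were given for members called in any comparison and for the 2 with the largest difference in each of 6 role groups. Wider lists named called genes, or genes of lowest p. The replicate numbers were checked for pairing by correlating the deviations of same-numbered arrays from their group means. Correlations were positive for spheroid culture with spheroid xenograft (0.34, 0.33 and 0.43) and for parental with spheroid xenograft (0.18, 0.21 and 0.48). So were those of spheroid culture with parental xenograft (0.080, 0.18 and 0.37). For parental culture with any group they were positive for replicate 1 and negative for replicates 2 and 3. The labels do not say what same-numbered arrays share. In all, 23 alternatives were run, 1 of them, the replicate block in a fit to the compared groups alone, chosen after the data were seen. Array number limits the precision: the median SE of a member's difference was 0.32. Each gene's SE pools its spread over all 4 groups, although the median member SD was 0.73 in parental culture and 0.14 in spheroid xenograft. A pooled SE can thus be too small for comparisons with parental culture and too large for those without it. GPT2 and 8 genes of the wider lists were not analysed here. An exact permutation test of 3 against 3 arrays cannot go below p = 0.10, so none is reported.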

Additional observations from a re-analysis of the deposited data

Results flagged for a closer look

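CHAC1 differed between tumour and culture in its spheroid minus parental difference, which was -1.53 in culture and 0.79 in xenografts. The difference between these, 2.33, passed limma's interaction test (adjusted p = 0.0340), and the means behind it were 9.03 ± 0.57, 7.49 ± 0.27, 6.68 ± 0.19 and 7.47 ± 0.12 in parental culture, spheroid culture, parental xenograft and spheroid xenograft (SD, n = 3). Over its alternatives the adjusted p of this difference ran from 3.98e-04 to 0.148, and it missed the threshold in 10 of 21.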

How the results depend on the processing

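Of 238 refits of the 11 member results that passed the test, all 238 kept their sign and 168 passed again. In part of these refits the sign could not change. A difference of 2 groups stays the same when an array of another group is dropped or only the compared groups are fitted. It also stays the same with the replicate block over 12 arrays. Differences that did not pass could change sign, and without parental culture replicate 2 the culture differences went from 7 to 17 positive. Quantile normalisation, cyclic loess and array weights mostly raised counts of members called and the share of all genes called together. Median centring lowered the share of all genes called. Quantile normalisation called 12 between the cultures (5.55% of all genes), 17 from parental culture to parental xenograft (5.95%), 1 from spheroid culture to spheroid xenograft (0.137%) and 4 for the interaction (0.673%). Cyclic loess called 12, 18 and 3 in the first, second and last of these (4.91%, 5.52% and 0.475% of all genes). Median centring called 4 in the first (1.77%), 4 in the second (2.33%) and 0 for the interaction (0.0405%). Array weights, which ranged from 0.192 on parental culture replicate 2 to 3.52, called 13 between the cultures (10.6% of all genes), 7 between the xenografts (6.1%), 21 from parental culture to parental xenograft (11.8%), 2 from spheroid culture to spheroid xenograft (4.63%) and 14 for the interaction (4.53%). Fitting only the groups compared called 0 between the cultures (0.0759% of all genes) and 4 between the xenografts (0.814%). From culture to xenograft it called 1 in parental cells (0.349%) and 1 in spheroid cells (0.592%). Leaving out parental culture replicates 1 and 2, which leaves 1 array in that group, gave a median of 0.83 for the interaction, against 0.055 over all genes. The replicate block over 12 arrays called 0 for the interaction (0.0607% of all genes). With only the groups compared it called 7 between the xenografts (2.48%) and 2 from spheroid culture to spheroid xenograft (2.99%). Over 12 arrays it changed the calls of SLC7A11 between the cultures (higher count, 4, with 2.25% of all genes) and of ASNS, SESN2 and CBS in parental xenografts (count 6, with 3.17%). Leaving out 1 array gave counts of 0 to 14 between the cultures, 0 to 3 between the xenografts, 2 to 20 from parental culture to parental xenograft, 0 to 1 from spheroid culture to spheroid xenograft and 0 to 5 for the interaction. The counts of 14, 3, 20 and 5 came with 4.31%, 0.708%, 3.92% and 0.491% of all genes called. Medians then ran from -0.70 to -0.031 between the cultures, 0.22 to 0.35 between the xenografts, -1.08 to -0.46 from parental culture to parental xenograft, -0.030 to 0.16 from spheroid culture to spheroid xenograft and 0.43 to 1.12 for the interaction. Fewer arrays leave fewer degrees of freedom, and the cause of the other shifts was not tested.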

Other observations

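Members varied more within a group than other genes in 3 of the 4 groups, by their median SD. The median SD of a member within a group was 0.73 in parental culture, 0.26 in spheroid culture, 0.25 in parental xenograft and 0.14 in spheroid xenograft, against 0.32, 0.19, 0.20 and 0.16 over all genes. The widest member in parental culture was TRIB3, at 1.60, and its SD in spheroid xenografts was 0.059. The median residual SD in the fit to all arrays was 0.45 over the members and 0.25 over all genes. These SDs were not matched for level, and 26 of the 38 members lay above the upper quartile of gene levels. The part of level in the spread was not tested.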
